A study of Mus musculus with 111 samples.

Results

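At ZT20, late in the dark and active phase of the mouse, 17 RNA-seq libraries of the tuberomammillary nucleus (TMN) compared an H3.3 mutant that cannot be monoaminylated with 2 control viruses. They are all libraries whose labels give ZT20, 17 of the 111 of the series, and consist of 6 Q5A, 5 GFP and 6 H3.3 libraries. All animals were C57BL/6 mice by the labels (C57BL/6J in the study's methods), male or female and obtained at 8 to 10 weeks of age, which received an adeno-associated virus (AAV) into the TMN, with tissue taken 21 days later. The GFP animals received an empty vector, the H3.3 animals wild-type H3.3, and the Q5A animals H3.3(Q5A), in which alanine replaces glutamine at position 5. All 3 vectors carried GFP behind an IRES, so GFP and the injection itself were shared by every group, and every animal kept its own H3 genes. The promoter of the vectors and the cell types that it reaches were not given in the sources used here. Infected tissue was dissected under GFP light from frozen sections of 150 µm, so the tissue taken also depended on where the virus had spread. The labels name 2 cohorts at ZT20. The 5 GFP libraries all belong to cohort 1, together with 4 of H3.3 and 4 of Q5A, and cohort 2 consists of the other 2 of H3.3 and 2 of Q5A.

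Transglutaminase 2 can join serotonin, dopamine or histamine to the side chain of glutamine 5 of histone H3, next to lysine 4, whose trimethylation marks active promoters and is read and written with the help of WDR5. Incorporated Q5A takes that glutamine away on the nucleosomes that contain it. The TMN of the posterior hypothalamus holds the histamine neurons of the brain, which fire during waking and fall silent in sleep. The question put to these libraries was whether gene expression at ZT20 differed between TMN that expressed H3.3(Q5A) and TMN that expressed either control virus, and the study pooled GFP and H3.3 as controls.

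The deposited tables hold raw counts for 54087 gene names, called rows here. Each library had 979664 to 2089895 counts in all (median 1276508), which was 3.50% to 4.82% of its reads with a unique position. Counting required a read to lie on the strand of the gene, whereas the first read of the kit runs against the transcript. A row can therefore hold reads of an overlapping gene on the other strand. By the same rule, reads of a gene's own transcripts would mostly go uncounted. A row without an overlap therefore need not measure its gene either. Parpbp, which overlaps the melanin-concentrating hormone gene Pmch on the other strand by 435 bases, had a median of 16650 CPM (counts scaled to a common effective library size, the total times a TMM factor), against 61.2 CPM for the Pmch row. The row opposite the better-known gene was also the higher one for Hpca (Tmem54), Rarb (Top2b) and Dbp (Sphk2), but Srpk2 (168 CPM) stood no higher than Kmt2e (187 CPM). Of the 9588 rows tested, 3502 have an annotated gene on the other strand. For those described singly that have one it is given, and differences between rows are differences of the row, not always of the gene it is named for. In none of the 40 pairs of libraries within a group at ZT20 did the counts agree within sampling noise. The defining TMN gene Hdc, which makes histamine, had 0 to 13 reads per library, too few to check the dissection. H3f3a (overlapping H3f3aos and Gm17275) with 1 to 11 reads and H3f3b with 6 to 57 reads likewise could not check the virus labels.

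Several libraries stood apart in markers of other brain regions. In cohort 1 replicate 3 of Q5A, called the striatal library below, the 37 rows of genes that mark striatal projection neurons summed to 3916 CPM, against 589 to 802 CPM in the other 16 libraries. Rows on the other strand of those genes summed to 5857 CPM there and to 660 to 1843 CPM elsewhere. The main comparison, and many but not all of the other results that rest on the Q5A group, are therefore given with all 17 libraries and without this one. In 4 control libraries, GFP replicate 1 and H3.3 replicates 1, 2 and 3 of cohort 1, the rows of 9 thalamic markers summed to 507 to 683 CPM, against 83.0 to 211 CPM in the other 7 controls and 46.6 to 276 CPM in Q5A. H3.3 replicates 2 and 3 of cohort 1 also stood apart on the first principal component, at -65.0 and -64.7 against -20.6 to 35.2 for the other 15 libraries. In bulk tissue, fewer cells of a type and less RNA per cell cannot be told apart.

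**Figure D1:**
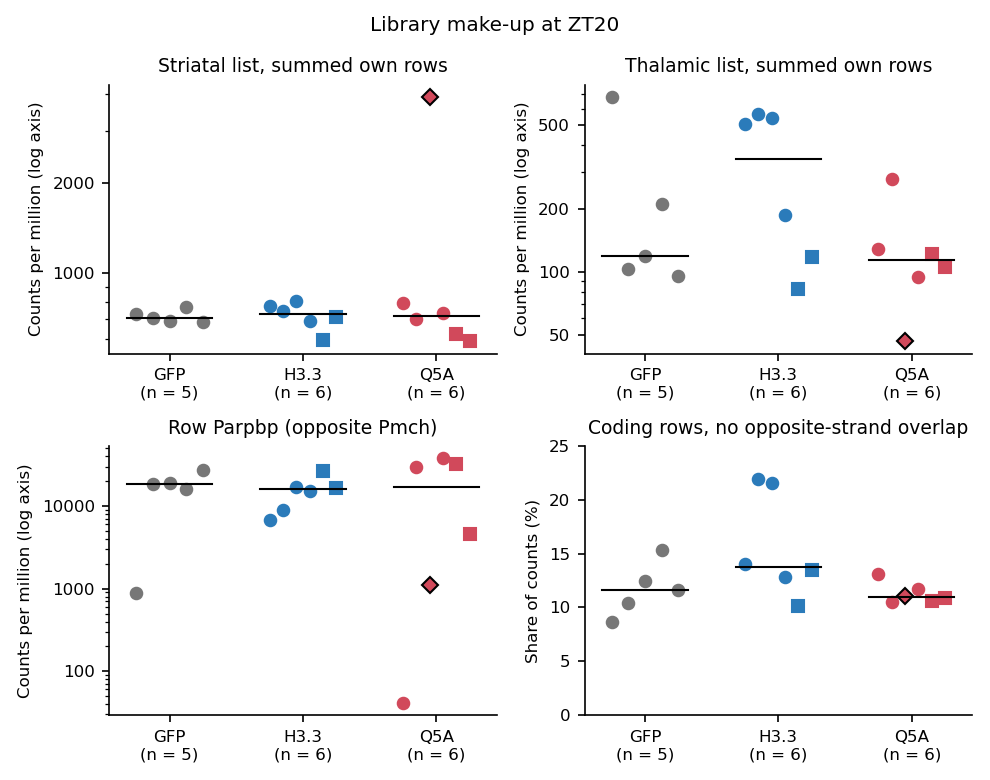
Composition of the 17 libraries at ZT20 by virus, 1 point per library: summed CPM of the striatal marker rows, summed CPM of the thalamic marker rows, CPM of the Parpbp row (log axes) and percent of counts in protein-coding rows without an opposite-strand overlap (linear axis). Diamonds with a black edge mark the striatal library, squares mark cohort 2, circles mark the other cohort 1 libraries and black lines are group medians; the striatal library stands alone at 3916 CPM and 4 controls lie at 507 CPM or more of thalamic markers.

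No row differed between Q5A and the pooled controls at the threshold of the study, an adjusted p under 0.01. Of 9588 rows tested with edgeR's quasi-likelihood test and Benjamini-Hochberg adjustment, 0 passed that threshold or an adjusted p under 0.05, and the smallest adjusted p was 0.0604, shared by Ovca2 and RP23-355L10.3. DESeq2 called 1 row, Ovca2, with an adjusted p of 0.00629, and called 0 once the striatal library was left out. At an unadjusted p under 0.05, 475 rows were higher in Q5A (4.95% of the rows tested) and 620 were lower (6.47%). When the striatal library was left out, 10005 rows were tested, 0 passed either adjusted threshold, 216 were higher (2.16%) and 489 lower (4.89%) at an unadjusted p under 0.05, and the smallest adjusted p was 0.383.

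Differences were small for most rows. The median absolute log2 difference was 0.21 over all rows tested, with a median standard error of 0.23, and 0.62 among the 1095 rows at an unadjusted p under 0.05. Of these, 61 were at least 2-fold higher and 36 at least 2-fold lower in Q5A. The rows at least 2-fold higher numbered 3 without the striatal library, and those at least 2-fold lower 49. Those 3 were Ovca2, Pet100 and RP23-131N12.3, of which the last 2 were picked out after their values had been seen.

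The row with the firmest difference was Ovca2, named for a serine hydrolase (chr11:75175942-75178835, minus strand, GRCm38). It overlaps the last of 3 exons of the non-coding transcript 1700016P03Rik (chr11:75172560-75177633, plus strand) by 641 bases. Intron 1 of that transcript holds Mir212 and Mir132, the genes of a pair of microRNAs described in neurons as induced by activity and by CREB. Their mature 3p forms are shown with those of Mir6363, the row next in line, because they are encoded at the 2 loci whose rows had the smallest p on the higher side without the striatal library. Capitals mark the seed, bases 2 to 8, and the sequences are RefSeq's for GRCm38.p6.
mmu-miR-132-3p: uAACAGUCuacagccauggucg
mmu-miR-212-3p: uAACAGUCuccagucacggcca
mmu-miR-6363: uGUAGACUggacuguccucaaa
The first 2 lie at chr11:75173723-75173744 and chr11:75173443-75173464, both on the plus strand, and share the seed AACAGUC. The third lies at chr16:50727204-50727225 on the plus strand and has another seed. Mature microRNAs carry no poly(A) tail and were not measured in these libraries.

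Ovca2 stood at 43.6, 57.1, 64.3 and 70.3 CPM in the 4 Q5A libraries of cohort 1 and at 23.6 and 18.3 CPM in those of cohort 2. GFP libraries held 2.17, 21.8, 9.67, 5.91 and 16.3 CPM, and H3.3 libraries 6.14, 11.6, 12.7 and 29.0 CPM in cohort 1 and 13.8 and 11.3 CPM in cohort 2. All 4 Q5A libraries of cohort 1 lay above every control, and the 2 of cohort 2 lay above both H3.3 libraries of their cohort but below the highest H3.3 library of cohort 1. The log2 difference, Q5A minus controls, was 1.71 ± 0.32 (SE; edgeR, unadjusted p = 1.26e-05, adjusted p = 0.0604). It was 1.60 without the striatal library, 2.05 within cohort 1, 1.59 against H3.3 and 1.90 against GFP. Ovca2 passed an adjusted p under 0.05 by edgeR with cohort as a covariate, within cohort 1, under RLE normalisation, and when H3.3 cohort 1 replicate 4 or either Q5A library of cohort 2 was left out. In no setting of edgeR with the filter on low counts did it pass 0.01.

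Mir6363 is the row of a microRNA hairpin (chr16:50727132-50727245, plus strand) that lies over its whole length of 114 bases across an exon of the long non-coding RNA gene Dubr on the minus strand. Q5A libraries held 27.9, 32.4, 22.4 and 29.3 CPM in cohort 1 and 12.9 and 19.0 CPM in cohort 2, and controls held 6.83 to 15.8 CPM. Only Q5A cohort 2 replicate 1 fell inside the control range. The log2 difference was 0.95 ± 0.21 (SE; edgeR, unadjusted p = 0.000137, adjusted p = 0.267), 0.97 without the striatal library and 1.15 within cohort 1.

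Pet100, named for an assembly factor of cytochrome c oxidase (chr8:3621548-3625848, plus strand), overlaps the Purkinje cell gene Pcp2 on the other strand by 941 bases. Its log2 difference was 1.83 ± 0.48 (SE; edgeR, unadjusted p = 0.000881, adjusted p = 0.310) and 1.81 without the striatal library. The 6 Q5A libraries held 12.9, 84.1, 26.1 and 9.76 CPM in cohort 1 and 4.29 and 2.82 CPM in cohort 2, and the controls 0.602 to 10.9 CPM. A single library, Q5A cohort 1 replicate 2, accounted for most of the Q5A sum, and 3 of the 6 Q5A libraries lay within the control range. RP23-131N12.3, a clone-based name with no position here, owed its difference of 1.25 without the striatal library to Q5A cohort 1 replicate 1 at 134 CPM, and its log2 difference was -0.05 when that library was left out.

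Complete separation of the groups was rare. A single row, RP23-94B13.2, lay higher in every Q5A library than in any control (0.0104% of the rows tested), at 261 to 342 CPM against 162 to 256 CPM. A single row, Shc3, lay lower in every Q5A library than in any control (0.0104%). Without the striatal library, Dolk joined RP23-94B13.2 on the higher side (0.02%) and Shc3 remained alone on the lower side (0.01%). Dolk, the gene of dolichol kinase, held 15.0 to 16.6 CPM in the 5 Q5A libraries other than the striatal one and 12.1 CPM in that one, against 5.14 to 14.1 CPM in controls. RP23-94B13.2 and Dolk were picked out after their values had been seen, with unadjusted p of 0.00754 and 0.0107 and adjusted p of 0.395 each by edgeR.

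**Figure D2:**
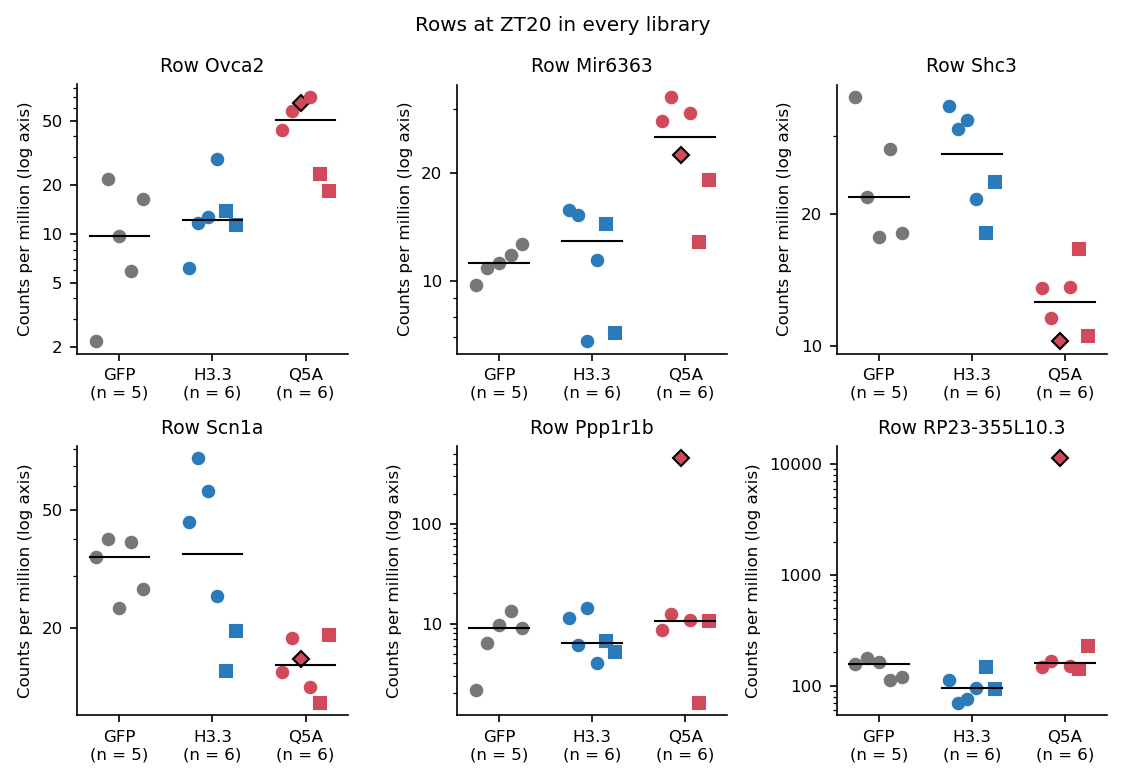
CPM (log axis) of 6 rows in the 17 libraries at ZT20, grouped by virus, 1 point per library. Diamonds with a black edge mark the striatal library, squares mark cohort 2, circles mark the other cohort 1 libraries and black lines are group medians; Ovca2 and Mir6363 were high in most Q5A libraries, Shc3 was lower in all 6 Q5A libraries than in any control, and RP23-355L10.3 and Ppp1r1b were high in the striatal library.

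On the lower side, the rows of smallest p were led by Shc3 and Scn1a. Neither has an annotated gene on the other strand, but the counted reads of these rows need not stand for the level of their genes. Shc3, an adaptor protein that couples neurotrophin receptors to intracellular signalling in neurons (chr13:51431041-51569419, minus strand), held 13.6, 11.6, 10.26 and 13.7 CPM in Q5A cohort 1 and 16.6 and 10.6 CPM in cohort 2. GFP libraries held 36.9, 21.8, 17.7, 28.1 and 18.1 CPM and H3.3 libraries 35.1, 31.2, 32.7, 21.6, 18.1 and 23.7 CPM. Its log2 difference was -0.94 ± 0.21 (SE; edgeR, unadjusted p = 0.000119, adjusted p = 0.267), -0.89 without the striatal library and -1.06 within cohort 1. The gap between the highest Q5A library and the lowest control was small, 16.6 against 17.7 CPM, and rested on counts of 11 to 31 reads per Q5A library.

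Scn1a, a voltage-gated sodium channel that carries firing in fast-spiking interneurons (chr2:66270778-66440840, minus strand), held 14.3, 18.5, 15.9, 12.7, 11.3 and 19.0 CPM in Q5A. GFP libraries held 23.4 to 39.9 CPM, with a median of 34.8 CPM. H3.3 libraries held 45.6, 74.6, 58.1, 25.7, 14.4 and 19.5 CPM, so only H3.3 cohort 2 replicate 1 fell within the Q5A range, and replicate 2 lay just above it. The log2 difference was -1.20 ± 0.28 (SE; edgeR, unadjusted p = 0.000249, adjusted p = 0.269), and -0.78 without the striatal library and the 4 thalamic libraries.

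A further 5 of the 8 lower rows of smallest p had log2 differences between -0.74 and -1.21. Sacm1l, a phosphoinositide phosphatase that overlaps Slc6a20b on the other strand, and Gdap1, a mitochondrial outer membrane protein, had log2 differences of -1.21 and -1.18. Anxa6, the gene of annexin A6, had -0.91, Vamp1, the synaptobrevin of many motor and brainstem terminals, -0.74, and Rims3, an active zone protein, -0.95. These 5 rows kept a negative sign in every alternative in which they were tested, with adjusted p of 0.310 to 0.349 by edgeR. Control medians were 8.78 to 14.2 CPM for the first 3 and 60.8 and 84.2 CPM for Vamp1 and Rims3. Without the striatal and thalamic libraries the last 2 had -0.49 and -0.44.

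The largest negative differences belonged to Prkcd, Synpo2, Ighg2c, AC163434.5 and Ighm, and each followed a few control libraries. Prkcd, a protein kinase C isoform abundant in thalamic relay neurons, stood at 151, 99.2, 92.9 and 145 CPM in the 4 thalamic libraries and at no more than 37.7 CPM in any other control or Q5A library. Its log2 difference was -2.52 ± 0.85 (SE), -2.33 without the striatal library and -0.47 (unadjusted p = 0.493 by edgeR) once the 4 thalamic libraries were left out as well. AC163434.5 ran to 1674 CPM in GFP cohort 1 replicate 1 against 44.0 to 153 CPM in Q5A, and its difference of -1.94 was 0.07 without the striatal and thalamic libraries. Ighm and Ighg2c encode immunoglobulin heavy chains of plasma and B cells. The Ighm row was at or above 24.2 CPM in 4 of 11 controls, 2 GFP and 2 H3.3, and at 0 to 14.7 CPM in Q5A, with a log2 difference of -1.85 and, without the striatal and thalamic libraries, of -1.88. Ighg2c was listed at 0 in 3 of 6 Q5A libraries and 3 of 11 controls and reached 87.8 CPM in GFP cohort 1 replicate 3. The part of immune cells carried with the tissue in these values was not tested.

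On the higher side, 4 of the 8 rows of smallest p were high in the striatal library alone or mostly there. RP23-355L10.3 held 11290 CPM in that library and 70.3 to 227 CPM in the other 16, a log2 difference of 4.05 ± 0.72 (SE; edgeR, adjusted p = 0.0604) with it and of 0.47 without it. Ppp1r1b, the gene of DARPP-32 (chr11:98348404-98357796, plus strand, overlapping 1700003D09Rik by 460 bases), held 452 CPM there and 1.61 to 14.2 CPM elsewhere, with 3.099 ± 0.69 (SE; edgeR, adjusted p = 0.267) and 0.07 with and without that library. A further clone-named row and RP23-465F1.3 stood at 2271 and 1187 CPM there. Their log2 differences of 2.13 and 1.86 became 0.81 and 0.42 without the library. RP23-359F12.6 was also highest there, at 215 CPM against 22.9 to 79.6 CPM elsewhere. The other 2 of the 8, besides Ovca2 and Mir6363, were AC122835.2 and RP23-359F12.6, with log2 differences of 0.89 and 1.12 and, without the striatal library, of 0.91 and 0.58. AC122835.2 held 14.6 to 30.3 CPM in Q5A and 7.32 to 20.6 CPM in controls, and every Q5A library lay above the control median. Another pair of clone-named rows was among the 5 higher rows of smallest p once the striatal library was left out, RP24-273I13.1 with 0.84 and AC157561.6 with 0.61, and in both all 6 Q5A libraries lay above the control median.

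The rows highest in the striatal library against the median of the other 16 included, among those with at least 50 reads in it, Mki67, Lrrc10b and Epyc. Mki67, a marker of dividing cells, stood at 55.0 CPM against 0 to 6.72 CPM elsewhere. Lrrc10b stood at 91.4 CPM against 0 to 4.03 CPM. Epyc, the gene of epiphycan, which overlaps Gm10754 on the other strand by 1041 bases, stood at 356 CPM against 0.906 to 13.6 CPM.

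**Figure D3:**
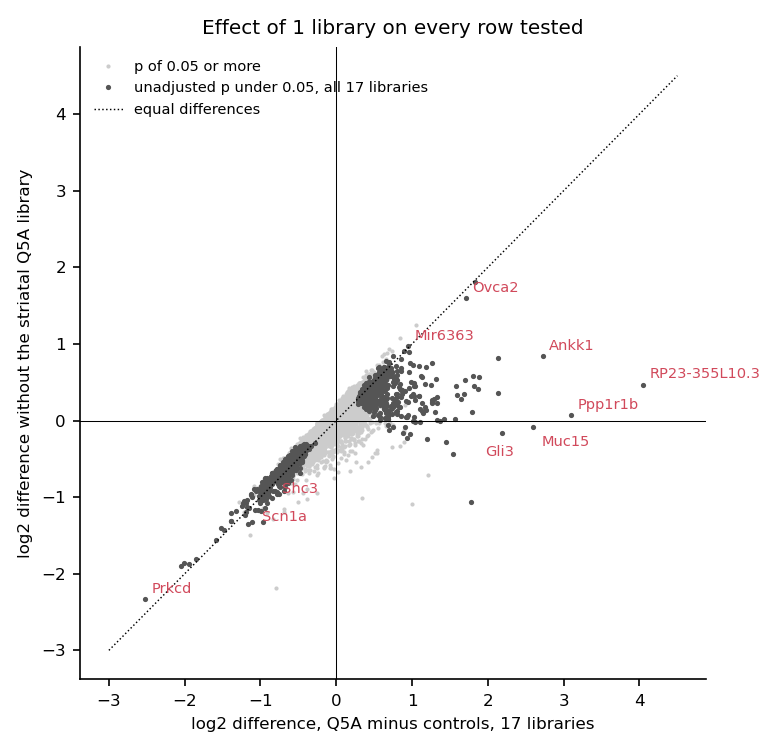
Log2 difference of every row tested in both fits, Q5A minus controls, with all 17 libraries (x axis) and without the striatal library (y axis); dark points had an unadjusted p under 0.05 with 17 libraries, and the dotted line marks equal differences. Lower rows lie along the line, as do Ovca2 and Mir6363, whereas higher rows such as RP23-355L10.3, Ppp1r1b, Ankk1, Muc15 and Gli3 (overlapping Gm6556) fall towards or below 0 on the y axis.

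The striatal library therefore bore on the 2 directions unequally. It was the highest of the 17 libraries in 300 of the 475 higher rows (63.2%). Rows called higher tend to peak in a Q5A library, and rows called lower in a control, by their selection. How often a library is highest over all rows tested was not counted, so such shares have no background here. Of those 475 rows, 167 were also higher at an unadjusted p under 0.05 without the striatal library, 35.2% of the rows with it and 77.3% of the 216 without it. The median log2 difference of the 475 rows went from 0.54 to 0.36, and 17 of them changed sign. Of the 620 lower rows, 382 were shared (61.6% of the rows with it and 78.1% of the 489 without it), 0 changed sign, and the median went from -0.64 to -0.61. In the lower rows H3.3 cohort 1 replicate 2 was the highest library in 258 of the 620 (41.6%) and replicate 3 in 256 (41.3%), shares that likewise have no background. With both of these H3.3 libraries and the striatal library left out, 9304 rows were tested, and 100 were higher and 233 lower at an unadjusted p under 0.05, none passing an adjusted p under 0.05 by edgeR. Without the striatal and the 4 thalamic libraries the numbers were 175 higher and 198 lower of 9140.

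Rows were then divided by whether the annotation places another gene on the opposite strand. Lower rows were mostly protein-coding rows with no opposite-strand overlap, of which 452 of 3941 were lower (11.5%) and 70 higher (1.78%), with a median log2 difference of -0.19. Protein-coding rows with an overlap were higher in 179 of 3144 cases (5.69%) and lower in 141 (4.48%), with a median of 0.05. Rows of other biotypes with an overlap were higher in 30 of 358 cases and lower in 0. Rows whose name is not in the annotation, mostly clone-based names, were higher in 194 of 2085 cases (9.31%) and lower in 24 (1.15%), with a median of 0.14. Beside these, all 9588 rows had a median of -0.01. Once the striatal library was left out, these 2 shares were 8.46% lower for protein-coding rows without overlap and 4.22% higher for names not in the annotation.

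The split by class went with the composition of the control libraries. Protein-coding rows without overlap took 21.9% and 21.6% of the counts in H3.3 cohort 1 replicates 2 and 3, and 8.68% to 15.4% in the other 15 libraries. Without those 2 and the striatal library, 3.49% of such rows were lower and 0.456% higher, with a median of -0.08. Controls averaged 13.9% ± 4.33 (SD, n = 11) by this measure and Q5A libraries 11.3% ± 0.97 (SD, n = 6), which did not separate the groups (2-sided exact permutation test, p = 0.165). Total counts, the share of uniquely placed reads in gene rows and the share in the 10 most abundant rows did not separate the groups either (exact permutation p = 0.395, 0.125 and 0.740, the smallest p adjusted over these 3 being 0.376). The part of library composition in the class split was not tested.

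**Figure D4:**
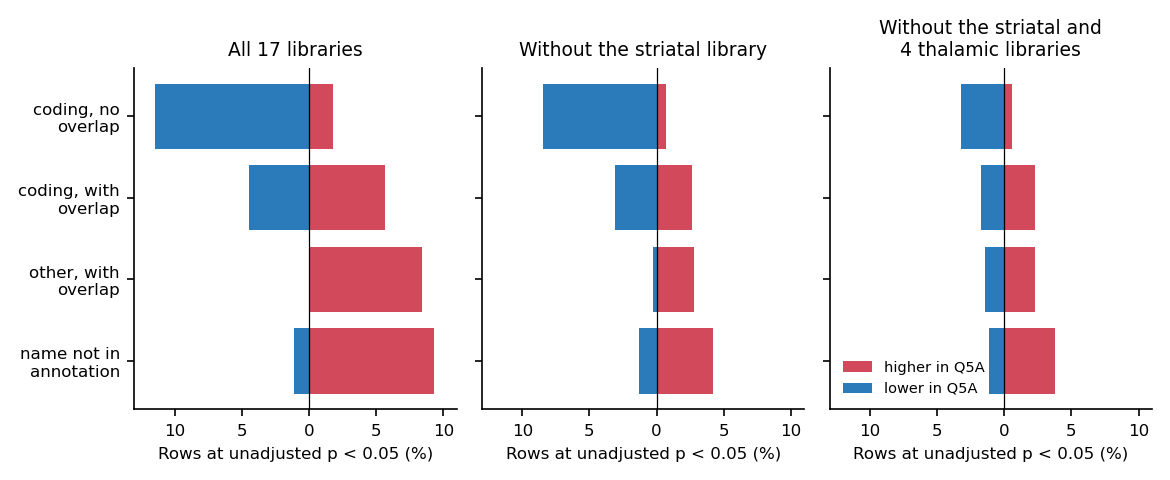
Percent of rows at an unadjusted p under 0.05 in 4 classes of row, higher in Q5A drawn to the right of 0 and lower to the left, with all 17 libraries, without the striatal library, and without the striatal and 4 thalamic libraries. The class of other biotypes without overlap, with 60 rows tested, is not drawn; lower rows were most frequent among protein-coding rows without overlap in each panel, at 11.5%, 8.46% and 3.19%.

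Set against each control separately, Q5A stood further from H3.3 than from GFP. Of 10008 rows in 1 fit of the 3 viruses, 920 were higher (9.19%) and 1297 lower (13%) against H3.3 at an unadjusted p under 0.05, 237 were higher (2.37%) and 201 lower (2.01%) against GFP, and H3.3 itself was higher than GFP in 865 (8.64%) and lower in 608 (6.08%). None passed an adjusted p under 0.05 by edgeR, and DESeq2 called 8, 0 and 10 rows at that threshold. The 3 comparisons share libraries, and the difference between them was not tested. Without the striatal library, 635 of 10005 rows were higher and 1123 lower against H3.3 at an unadjusted p under 0.05 by edgeR. Against GFP 127 were then higher and 195 lower. Without H3.3 cohort 1 replicates 2 and 3, the rows at an unadjusted p under 0.05 numbered 404 against H3.3, 545 against GFP and 365 between the controls. Without H3.3 cohort 2 replicate 1 alone, 533 rows differed between Q5A and H3.3 at an adjusted p under 0.05 by edgeR and 0 at 0.01.

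Most named rows had the same sign against both controls. Ovca2, Mir6363, Shc3, Scn1a, Vamp1 and Hcn4 had log2 differences against H3.3 of 1.59, 0.93, -0.99, -1.30, -0.70 and -1.13, and against GFP of 1.90, 0.98, -0.86, -1.04, -0.78 and -1.09. The 3 rows of smallest p against H3.3 were less alike between the controls. Ptprz1, a receptor phosphatase of glial progenitors and astrocytes, had -1.25 against H3.3 and -0.23 against GFP, Matr3, a nuclear matrix RNA-binding protein (overlapping AC121821.3), -1.25 and -0.31, and Glod4 (overlapping Fam57a and Mrm3) -1.31 and -0.20. Cdh23, a cadherin of the hair cell tip link, went the other way, with -0.47 against H3.3 and -1.19 against GFP, as did RP24-325H17.1 with 0.08 and -1.01.

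**Figure D5:**
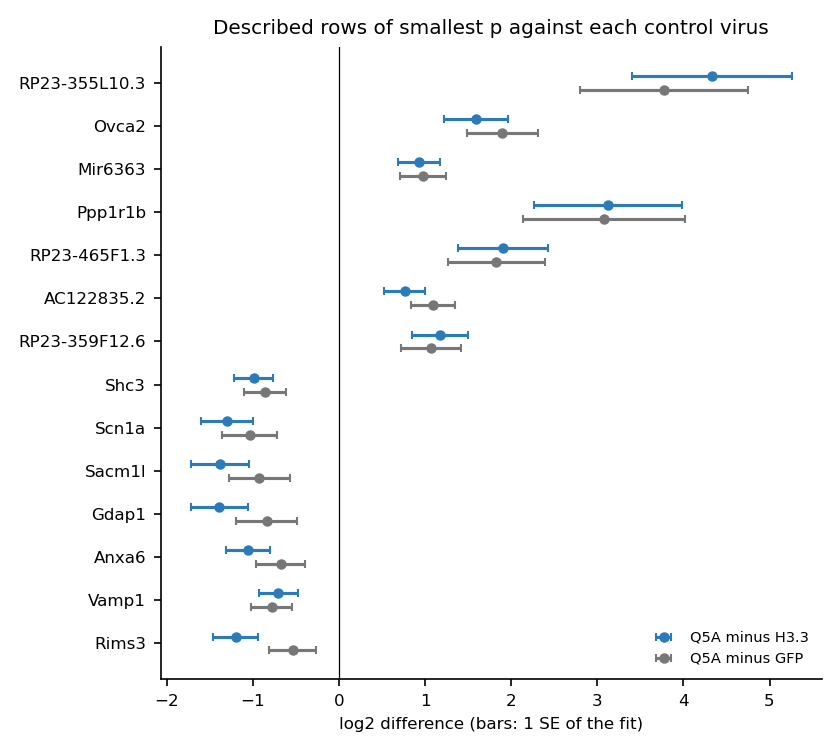
Log2 difference of 7 higher and 7 lower rows among those of smallest p in the pooled comparison, against each control, Q5A minus H3.3 and Q5A minus GFP, from 1 fit of the 3 viruses at ZT20; points are estimates and bars are 1 SE. Ovca2 and Mir6363 lie above 0 and Shc3 and Scn1a below 0 against both controls.

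Gene groups were described by counts and medians beside those of all rows, whose median was -0.01. Over all rows tested 4.95% were higher and 6.47% lower at an unadjusted p under 0.05 by edgeR. Of protein-coding rows without overlap 11.5% were lower. These shares are the background for list counts with all 17 libraries. Without the striatal library 2.16% of all rows were higher and 4.89% lower, and 8.46% of protein-coding rows without overlap were lower. Without the striatal and thalamic libraries these shares were 1.9%, 2.17% and 3.19%. Counts are of the rows that carry the names of the genes, unless rows on the other strand are named. The histamine group held markers of histamine neurons and enzymes, transporters and receptors of histamine. It had 15 rows, 4 of them with enough reads to be tested, and 0 at an unadjusted p under 0.05, with a median of 0.00. Tgm2, the writer of H3Q5 monoaminylation (overlapping Rprd1b and Gm20412), held 0 to 14 reads per library, and Wdr5 1 to 13 reads, and neither was tested. Among H3.3 genes and chaperones, 1 of 7 rows was lower, Ubn1, a subunit of the HIRA complex that deposits H3.3, with -0.58 ± 0.22 (SE; edgeR, unadjusted p = 0.0155, adjusted p = 0.396). H3f3b held 11.2 to 20.1 CPM in Q5A, 14.4 to 34.8 CPM in H3.3 and 6.52 to 25.4 CPM in GFP, with a log2 difference of -0.27 ± 0.24 (SE; edgeR, adjusted p = 0.630).

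In the H3K4 methylation machinery, 3 of 19 rows were lower, 0 higher, and the median was -0.14, beside 11.5% lower and a median of -0.19 over protein-coding rows without overlap. The 3 rows on the other strand of these genes were all above 0, 1 of them higher, with a median of 0.21. Men1, the menin subunit of the KMT2A and KMT2B complexes, held 11.3 to 15.7 CPM in Q5A and 14.0 to 25.4 CPM in controls, with -0.48 ± 0.18 (SE; edgeR, unadjusted p = 0.0120, adjusted p = 0.395). Kmt2c, an H3K4 monomethyltransferase of enhancers that overlaps Gm42585 on the other strand, had -0.59, and held 9.12 to 14.8 CPM in Q5A inside the 6.52 to 35.5 CPM of controls. Both kept their sign in every alternative tested, without the striatal and thalamic libraries at -0.33 and -0.53.

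Of the circadian clock list, 15 of 24 rows were tested. Beside a background of 4.95% higher and 6.47% lower over all rows, 1 was higher and 2 lower, with a median of -0.08. Nr1d1, the row named for the repressor REV-ERBα (overlapping the thyroid hormone receptor gene Thra by 263 bases on the other strand), was the higher one, with a log2 difference of 0.44 ± 0.18 (SE; edgeR, unadjusted p = 0.0223, adjusted p = 0.409). It held 1914, 1680, 2306 and 1799 CPM in Q5A cohort 1 and 2760 and 2200 CPM in cohort 2. GFP held 1235 to 1839 CPM, and H3.3 held 1094, 1089, 927 and 1678 CPM in cohort 1 and 2198 and 2231 CPM in cohort 2. Both H3.3 libraries of cohort 2 and 1 of the 2 Q5A libraries lay above all those of cohort 1 with the same virus, and the difference was 0.45 within cohort 1 and 0.18 without the striatal and thalamic libraries. Rora, an activator of Bmal1 that is also on the thalamic list and overlaps Gm15511, was lower with -1.39, its highest values again being those of thalamic libraries. Per1 held 4.28 to 10.26 CPM in Q5A and 3.67 to 14.2 CPM in controls, with -0.39 ± 0.28 (SE; edgeR, adjusted p = 0.555), and the row Dbp, which overlaps Sphk2, had 0.02 ± 0.20 (SE; edgeR, adjusted p = 0.970). The Sphk2 row had a median of 445 CPM against 18.5 CPM for the Dbp row, and 1157 CPM in the striatal library. The Dbp row alone therefore does not describe the Dbp gene. The 2 rows on the other strand of clock genes had 0 higher and 0 lower, with a median of 0.16. Per2 with 0 to 14 reads and Arntl (overlapping Gm45355) with 1 to 21 reads per library were below the filter. With so few counted reads, a difference in these 2 genes could not be assessed.

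Among the rows that carry their names, neuronal signalling lists leaned to lower values. Of the GABA and glutamate receptor rows, 8 of 31 were lower and 1 higher, with a median of -0.28. Of the synaptic vesicle and presynaptic rows, 8 of 31 were lower and 0 higher (median -0.32), of the sodium and calcium channels and pumps 6 of 31 lower and 2 higher (median -0.35), and of the potassium channels 5 of 30 lower and 0 higher (median -0.16). Beside these stands the background of 6.47% lower and 4.95% higher over all rows, and of 11.5% lower over protein-coding rows without overlap. Without the striatal library the lower rows numbered 9 of 32, 7 of 31, 5 of 31 and 6 of 31, and without the striatal and thalamic libraries 1 of 29, 1 of 31, 4 of 29 and 1 of 29. In those fits 8.46% and 3.19% of protein-coding rows without overlap were lower. Rows on the other strand of the listed genes did not share the lean to lower values. In the same order 0 of 5, 0 of 10, 2 of 4 and 1 of 6 were higher. Lower were 1, 0, 0 and 1, with medians of -0.03, 0.03, 0.22 and -0.18. For sodium and calcium channels and pumps their summed CPM had a control median of 12320, against 2390 for the named rows.

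Single members had larger differences than the medians. Gabbr2, a subunit of the metabotropic GABA receptor, had -0.71 ± 0.27 (SE) and held 33.6 to 86.5 CPM in Q5A and 48.1 to 181 CPM in controls. Kcna2, a voltage-gated potassium channel of axons, had -0.82, Kcnc2, a channel of fast-spiking neurons, -1.19, and Hcn4, a pacemaker channel, -1.12. Without the striatal and thalamic libraries Gabbr2, Kcna2 and Kcnc2 had -0.17, -0.44 and -0.33. Snap25, the t-SNARE of synaptic vesicle fusion, had -0.58 ± 0.23 (SE), with 173 to 288 CPM in Q5A inside the 161 to 591 CPM of controls. The 1 higher receptor row was Grin2d, an NMDA receptor subunit that overlaps Gm45441, at 0.70, which stood at 219 CPM in the striatal library and at 37.3 to 71.4 CPM in the other Q5A libraries, and was 0.09 without the former.

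In the neurotrophin list 2 of 21 rows were lower, Shc3 and Pik3ca, a catalytic subunit of PI3 kinase, the latter with -0.99 ± 0.38 (SE). Protein-coding rows without overlap were lower in 11.5% of cases, so this count stood near the background. Glucocorticoid response rows numbered 8, of which 1 was higher and 2 lower. Plin4, a lipid droplet protein (overlapping Hdgfl2), was the higher one at 0.58, with 6.97 to 14.0 CPM in Q5A and 4.03 to 10.4 CPM in controls. Nr3c1, the glucocorticoid receptor, was among the lower ones at -0.78. Of the immediate early genes, 1 of 11 was higher and 0 lower. It was Homer1, at 42.9 CPM in the striatal library and 2.68 to 15.0 CPM in the other Q5A libraries, and its log2 difference of 0.80 was 0.21 without that library. Heat shock and cold-inducible rows had 1 lower of 17, Hsp90aa1, with -0.52 and -0.39 with and without the striatal library.

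Of the nuclear-encoded oxidative phosphorylation rows, 8 of 60 were lower and 0 higher, with a median of -0.32, beside the 11.5% lower of protein-coding rows without overlap. Without the striatal and thalamic libraries 1 of 57 was lower and the median was -0.03. Of the rows on the other strand of these genes, 12 of 14 were above 0, 1 was higher and 0 lower, with a median of 0.12. Cyc1, of complex III, had -0.52 ± 0.19 (SE) and Atp5a1, of the ATP synthase (overlapping Haus1), -0.57 ± 0.23 (SE). Cytosolic ribosomal protein rows had 1 lower of 42 (Rpl7, -0.92) and a median of -0.05. All 37 mitochondrially encoded rows were listed at 0 in every library.

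Markers of other cell types moved with some of these groups. All 9 thalamic rows were tested, all 9 were below 0, 5 at an unadjusted p under 0.05, and the median was -1.09 and -0.89 with and without the striatal library. The 4 thalamic libraries are controls set apart by these same rows, so lower values in Q5A followed from them. Without these and the striatal library 4 of 7 rows tested were above 0, 2 were higher and 0 lower, and the median was 0.12. Slc17a6, the vesicular glutamate transporter of thalamic and many hypothalamic neurons, held 50.3 to 74.6 CPM in the 3 thalamic H3.3 libraries, 15.4 to 28.1 CPM in the other 8 controls, 1.87 CPM in the striatal library and 11.4 to 25.4 CPM in the other Q5A libraries, with a log2 difference of -1.09 ± 0.36 (SE). The striatal library was likewise set apart by the striatal rows. Their higher values in Q5A, and the fall without that library, thus followed from it. Of the striatal rows, 21 of 37 were tested, 21 were above 0 and 10 were higher at an unadjusted p under 0.05, with a median of 0.88. Without the striatal library 0 of 21 were, and the median was -0.03, Hpca (overlapping Tmem54) going from 1.14 to 0.10 and Penk, an opioid peptide precursor that overlaps A830012C17Rik, from 1.42 to 0.02. Nrgn, a calmodulin-binding protein of forebrain excitatory neurons, was the 1 higher row of 5 on the cortical and hippocampal list, at 460 CPM in the striatal library. It also stood at 87.1 and 68.7 CPM in Q5A cohort 1 replicates 1 and 2, above the 13.0 to 56.0 CPM of controls, and its log2 difference without the striatal library was 0.53 (unadjusted p = 0.0617 by edgeR). The 2 higher monoamine receptor rows of 12 were Adra2c and Htr1b (the latter overlapping D430036J16Rik), at 1.27 and 1.05, and 0.24 and 0.26 without that library.

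Glial lists differed among themselves. Astrocyte rows had 1 lower of 20 (Slc4a4, a bicarbonate cotransporter, -0.52) and a median of -0.28, oligodendrocyte and myelin rows 0 of 20 in either direction with a median of -0.21. Microglia and immune rows had 4 lower of 12 and a median of -0.47, where 11.5% of protein-coding rows without overlap were lower. Without the striatal and thalamic libraries 2 of 12 were lower, 11 were below 0 and the median was -0.48, where 3.19% of protein-coding rows without overlap were lower. Against GFP 7 of 13 were lower with a median of -0.69, where 2.01% of all rows were lower. Against H3.3 3 of 13 were lower with a median of -0.30, where 13% of all rows were lower. The 3 rows on the other strand of these genes had 0 higher and 0 lower, with a median of 0.15. B2m, the light chain of MHC class I, was among the lower rows at -0.96 ± 0.38 (SE), with 1.87 to 14.6 CPM in Q5A and 4.11 to 28.3 CPM in controls. Endothelial and pericyte rows had 2 lower of 5, Flt1, a VEGF receptor, at -1.03, and Rgs5, a pericyte marker, at -1.02, and without the striatal and thalamic libraries 0 of 5. Hypothalamic neuropeptide rows had 0 of 6, and the Parpbp row opposite Pmch ran from 41.4 to 38100 CPM among Q5A libraries and from 889 to 27260 CPM among controls. Its log2 difference was 0.17 ± 0.69 (SE; edgeR, adjusted p = 0.928), far smaller than the spread within each group. Pmch marks neurons of the lateral hypothalamus beside the TMN. The remaining lists had few rows tested, with 0 passing in mammillary transcription factors (7), interferon response (5), ependymal (2), meningeal (2), pituitary (7) and blood (2), and 3 lower of 13 in the GABA, glutamate and galanin list, among them Slc6a11 at -0.58. The part of these cell types in the results was not tested.

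Lastly, the Q5A difference at ZT20 was set against its mean over the other 5 ZT in 1 fit of 110 libraries. Of 13891 rows, 17 had a different Q5A effect at ZT20 at an adjusted p under 0.01 by edgeR, and 79 at 0.05. At an unadjusted p under 0.05 there were 2665 rows (19.2%). Once the striatal library was left out, 0 of 13873 rows passed either adjusted threshold by edgeR, and 1849 had an unadjusted p under 0.05 (13.3%). All 17 rows were more positive at ZT20, led by RP23-355L10.3 (4.93), Epyc (4.27), Ppp1r1b (3.48) and Muc15, which overlaps Ano3 (3.16). For Ovca2 the difference of differences was 1.43 (edgeR, adjusted p = 0.0638), for Mir6363 1.098 (0.0600), for Shc3 -0.88 (0.0556) and for Scn1a -1.37 (0.0233), with all libraries included. These rows were picked for their small p at ZT20, and the contrast holds the same ZT20 libraries. A difference in the same direction was thus favoured by the choice, and these values are not separate evidence for ZT20.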

How the data were processed

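The authors made libraries from polyadenylated RNA of 1 animal each with the Illumina Stranded mRNA Prep, aligned reads to GRCm38 with STAR 2.7.11b and used HTSeq 2.0.5 to count reads in exons by gene name, in union mode with the stranded option set to yes, and these raw counts are what was deposited, 1 table of 54087 rows per library. Of the 5 summary entries, kept out of totals and tests, that for reads outside counted exons held most uniquely placed reads. Submitters' processing notes also name DESeq2 1.44.0. CPM are counts scaled to the total in gene rows times edgeR's TMM factor (0.838 to 1.259 at ZT20). Of the names, 28499 were found in GENCODE vM21, and opposite-strand overlaps were taken from its exons with bedtools 2.31.1.

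Tests used edgeR 4.0.16 in R 4.3.3 (TMM, filterByExpr with a minimum count of 10 and a minimum total of 15, quasi-likelihood F test, prior count 2, Benjamini-Hochberg adjustment over all rows tested), with DESeq2 1.42.0 as an alternative. The main design pooled GFP and H3.3 as the study did, with its threshold of an adjusted p under 0.01, and the script was tested on simulated data. Standard errors are of the log2 difference. Exact permutation tests used all arrangements of 6 against 11 libraries. A row that passed the filter only through the group in which it is high had to differ, so list counts are counts of the rows tested and not of all members.

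Groups came from the labels. Replicates are separate animals. Replicate numbers did not pair the libraries. For the comparison with other ZT, 1 pair of Q5A libraries at ZT4 that agreed within sampling noise was averaged, leaving 110 libraries. Rows were named by a fixed rule (the 8 of smallest p in each direction, the 5 of largest difference in each direction, the 5 of smallest p in each direction without the striatal library, the leading rows of the other comparisons, the 10 rows with the highest ratio in the striatal library, the 2 members of smallest p in each of 31 gene lists, and a set of fixed names), and not all rows it picked are described. The members, lists and rule were chosen with earlier results of these data known. Drd1 has no row, and 18 deposited files that map to no sample were not used. Low total counts leave many rows with few reads. Alternatives varied the normalisation, filter, dispersion, cohort, replicate block, tool, each library in turn, and the sets of libraries that stood apart, the last chosen after the data were seen.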

Additional observations from a re-analysis of the deposited data

Results flagged for a closer look

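A total of 43 of the 249 groups of 5 or 6 libraries tested (17.3%, where chance gives about 1 in 20) had a library far from the others, measured as its gap to the nearest library over the range of the group. Rows were named in part for their value in the striatal library, so this share cannot be read against the chance rate. In 19 of them that library was the striatal one. It was the highest Q5A library in 18 rows, which were, with their CPM, RP23-355L10.3 (11290), Ppp1r1b (452), RP23-465F1.3 (1187), RP23-359F12.6 (215), Ankk1 (248), Muc15 (431), Gli3 (214), Epyc (356), RP23-76M24.3 (3737), Mki67 (55.0), Lrrc10b (91.4), Hpca (268), Nrgn (460), Homer1 (42.9), Grin2d (219), Adra2c (104), Htr1b (95.1) and Penk (247), and the lowest in Dolk (12.1 CPM).

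Other libraries stood apart in single rows, again with CPM in parentheses. GFP cohort 1 replicate 1 was the highest of its group in RP23-465F1.3 (130), Anxa6 (20.6), Prkcd (151), AC163434.5 (1674) and Hcn4 (39.1). GFP cohort 1 replicate 1 was the lowest of its group in Nrgn (13.0). GFP cohort 1 replicate 3 was the highest of its group in Ighg2c (87.8). GFP cohort 1 replicate 4 was the highest of its group in Ptprz1 (36.2), Snap25 (366) and Per2 (10.34). H3.3 cohort 1 replicate 1 was the highest of its group in Epyc (11.4) and Dbp (28.1). H3.3 cohort 1 replicate 2 was the highest of its group in Mki67 (6.72) and Kmt2c (35.5). H3.3 cohort 1 replicate 4 was the highest of its group in Ovca2 (29.0). Q5A cohort 1 replicate 1 was the highest of its group in RP23-131N12.3 (134). Q5A cohort 1 replicate 2 was the highest of its group in Prkcd (34.7), Synpo2 (13.12), AC163434.5 (153) and Pet100 (84.1). Q5A cohort 1 replicate 2 was the lowest of its group in Ubn1 (5.40). Q5A cohort 2 replicate 2 was the highest of its group in RP24-273I13.1 (111) and Hdc (9.16). In GFP cohort 1 replicate 5 the 10 most abundant rows held 15.2% of the counts, the highest of the GFP libraries.

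The Q5A difference at ZT20 was unlike its mean over the other 5 ZT at an adjusted p under 0.01 (edgeR, 110 libraries) in 17 rows, by the following log2 amounts: Actn1 1.45, Ddn 2.17, Epyc 4.27, Gli3 2.41, Gm10849 2.25, Muc15 3.16, Neu2 1.85, Ppp1r1b 3.48, RP23-235H10.4 1.61, RP23-355L10.3 4.93, RP23-465F1.3 2.36, RP23-76M24.3 2.71, RP23-96N11.5 2.74, RP24-225K18.5 2.23, Slc24a4 2.48, Tmem54 1.84 and another clone-named row 2.43. None of the 13873 rows passed that threshold by edgeR without the striatal library, where 1849 had an unadjusted p under 0.05, and DESeq2 called 25 rows with all libraries.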

How the results depend on the processing

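Of 68 rows named and tested, 55 kept their direction in all 30 alternatives in which they could be tested, and 13 did not. The number of rows called at an adjusted p under 0.01 was 0 in the pooled comparison except under DESeq2 (1) and with no filter on low counts (31), and the latter setting also gave 225 against H3.3, 109 against GFP and 53 between the controls, where DESeq2 gave 1. Rows at an unadjusted p under 0.05 in the pooled comparison, 1095, became 2735 with no filter, 425 in cohort 1 without the striatal library, 495 without H3.3 cohort 1 replicates 2 and 3, 333 without these and the striatal library, 373 without the striatal and 4 thalamic libraries, and 705 (without the striatal library) to 1614 over the omissions of 1 library, with 725 and 711 without H3.3 cohort 1 replicate 2 or 3. Against H3.3, 2217 became 3889, 404 without both H3.3 libraries, 393 without the striatal and thalamic ones, and 1185 (without H3.3 cohort 1 replicate 3; 1251 without replicate 2) to 3214. Against GFP, 438 became 1693 with no filter, and omitting 1 library gave 322 to 503. Between the controls, 1473 became 3091 with no filter, 2718 in cohort 1, 365, 538, and 753 (without H3.3 cohort 1 replicate 3; 803 without replicate 2) to 2337 (without H3.3 cohort 2 replicate 1). Against the other ZT, the 17 rows at an adjusted p under 0.01 became 106 in cohort 1, 179 with no filter, 79 at 0.05 and 0 without the striatal library.

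No pairing of libraries by replicate number was seen: of 14 same-numbered pairs, 3 had a correlation of deviations over 0.1 (-0.31 to 0.33), and 2 of 16 libraries correlated best with their own number. With the replicate number as a block, 603 rows had an unadjusted p under 0.05 in the pooled comparison, 1645 against H3.3, 312 against GFP and 1521 between the controls, and 0 rows passed an adjusted p under 0.01 against the other ZT, where 43 passed 0.05.

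Reversals were of the following log2 values. Without the striatal and thalamic libraries, AC163434.5 had 0.074, Adra2c -0.047, Grin2d -0.068, Hpca -0.071, Muc15 -0.43, Penk -0.26 and RP23-76M24.3 -0.047. With the striatal library alone left out, Gli3 had -0.16 and Muc15 -0.090 (DESeq2 -0.16 and -0.094), against up to 2.445 and 2.86 when another library was left out, and in cohort 1 without it Ankk1 had -0.46, Hpca -0.035 and Dbp -0.071. Without it and H3.3 cohort 1 replicates 2 and 3, Grin2d had -0.0080, Muc15 -0.31, Penk -0.024, Dbp -0.095 and Pmch 0.12. Dbp, near 0, ran from -0.10 (without Q5A cohort 1 replicate 4) to 0.12 over the omissions of 1 library, was -0.012 without both H3.3 libraries and -0.026 by DESeq2 without the striatal library. Parpbp had -0.69 with the block and -0.22 to 0.42 over the omissions of 1 library, and RP23-131N12.3 had -0.054 without Q5A cohort 1 replicate 1 and up to 1.36 without another. The difference in total counts was -18400 in cohort 1 and that in the share of the 10 most abundant rows 0.322 percentage points without the striatal library, neither past a test. Where the cause of a change is not given by the library left out, it was not tested. Rows with few counted reads, such as Hdc, Tgm2, Wdr5, Per2 and Arntl, were limited by those counts.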
